A study of Mus musculus with 9 samples.

Results

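Gluconeogenesis genes were examined in bulk liver RNA from mice fed a high-fat diet, as 10 genes picked by name from a count table of 56748 genes. The list holds 9 genes of the route from amino acids and pyruvate to free glucose (Gpt, Gpt2, Got1, Pcx, Pck1, Pck2, Fbp1, G6pc and Slc37a4) and Creb3l3, a membrane-bound transcription factor of hepatocytes. All 10 were found under their symbols, and all 10 were among the 13042 genes abundant enough to be tested. The formoterol group comprised 5 libraries (M46, M47, M48, M49 and M50) and the vehicle group 4 (M56, M58, M59 and M60). Every library came from a male C57BL/6J mouse, 28 weeks old, that had received the diet for 20 weeks from the age of 8 weeks. Formoterol, an agonist of the beta-adrenergic receptor that raises cyclic AMP, was injected intraperitoneally at 1 mg/kg each day of the final 4 weeks. The vehicle mice received DMSO in the same way, so all animals carried the diet and the injections. The comparison asks how liver transcripts differ after repeated beta-agonist dosing on that diet. The direction of each difference depends on reading the column suffixes HF and HD as formoterol and DMSO.

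Gluconeogenesis makes glucose from lactate, glycerol and amino acids. In liver it is concentrated in the periportal hepatocytes. Transaminases deliver carbon from amino acids, pyruvate carboxylase forms oxaloacetate in mitochondria, and phosphoenolpyruvate carboxykinase, fructose-1,6-bisphosphatase and glucose-6-phosphatase bypass the irreversible steps of glycolysis. In fasting, glucagon and adrenaline raise cyclic AMP and thereby transcription of Pck1 and G6pc, whereas insulin lowers it.

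The promoter windows of 3 genes are shown because Pck1 and G6pc are textbook cyclic AMP targets and Fbp1 is the gene with the smallest p of the 10. The windows run from 250 bases before to 50 bases after the start site, are taken from RefSeq on GRCm38.p6 (chr2:173152823-173153122, plus strand; chr11:101367466-101367765, plus strand; chr13:62888233-62888532, minus strand) and are printed 5′ to 3′ in the direction of transcription. Capitals mark CGTCA (the reverse complement of the half-site TGACG) in Pck1 and TGTTTTG (the reverse complement of CAAAACA) in G6pc.
Pck1: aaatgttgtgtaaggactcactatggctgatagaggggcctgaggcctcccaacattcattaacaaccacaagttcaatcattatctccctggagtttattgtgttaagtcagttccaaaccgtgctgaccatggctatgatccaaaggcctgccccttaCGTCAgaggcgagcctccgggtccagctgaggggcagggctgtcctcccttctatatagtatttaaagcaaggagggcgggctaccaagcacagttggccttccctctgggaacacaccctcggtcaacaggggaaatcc
G6pc: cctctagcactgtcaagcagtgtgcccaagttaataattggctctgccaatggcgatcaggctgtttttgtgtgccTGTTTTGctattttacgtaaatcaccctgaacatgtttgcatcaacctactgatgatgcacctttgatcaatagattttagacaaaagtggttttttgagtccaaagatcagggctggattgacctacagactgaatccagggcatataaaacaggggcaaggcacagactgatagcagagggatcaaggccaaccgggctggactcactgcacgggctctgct
Fbp1: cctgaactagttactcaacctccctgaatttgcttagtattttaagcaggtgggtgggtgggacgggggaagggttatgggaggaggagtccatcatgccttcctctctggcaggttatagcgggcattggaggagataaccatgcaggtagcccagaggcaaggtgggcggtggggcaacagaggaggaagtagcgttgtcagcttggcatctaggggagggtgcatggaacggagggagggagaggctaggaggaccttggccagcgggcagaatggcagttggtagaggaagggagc

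The search covered 4 motifs on both strands of the 13 windows that matched 9 of the members (Gpt was not matched). Only exact matches were counted, so a variant of a motif counts as absent. The full cyclic AMP response element TGACGTCA was in none of them, beside 1.79% of all 32851 windows. Its half-site TGACG, which the full element contains, lay in 4 of the 13 windows, which belong to Pck1 (position −90), Slc37a4 (a pair of windows that overlap) and Creb3l3, beside 20.8% of all windows. The insulin-response core CAAAACA lay in 3 of the 13 windows, those of G6pc (position −174), Pck2 and Creb3l3, beside 6.28% of all windows. The forkhead motif TGTTTAC was in none, beside 3.65% of all windows.

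Libraries held 13239166 to 20339665 counts in the formoterol group and 12336665 to 19704690 in the vehicle group. Albumin stood at 72730 to 105100 CPM (the usual depth-scaled count, here with TMM factors) in formoterol livers and 63460 to 73380 CPM in vehicle livers, the defining transcript of liver. Formoterol library M49 stood apart from its group: its median correlation of log2 CPM was 0.925 with the other formoterol libraries and 0.95 with the vehicle libraries. M50 was placed likewise, at 0.945 and 0.959. In every vehicle library that value was 0.965 or more within its own group. Genes of the mitochondrial genome took 16.4% to 38.6% of the counts in formoterol libraries and 23.4% to 34% in vehicle libraries. In bulk tissue, a change in the number of cells of a type and a change in RNA per cell cannot be told apart.

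No member passed the edgeR test at an adjusted p under 0.05, where 0% of all 13042 genes did. At an unadjusted p under 0.05, Gpt was the 1 member higher in formoterol livers, beside 9.03% of all genes, and Fbp1 the 1 member lower, beside 5.53% of all genes. In none of the 10 did the groups separate completely, while 2.45% of all genes lay wholly higher and 2.38% wholly lower in formoterol. Of the 10 log2 fold changes (formoterol minus vehicle), 6 were positive and 4 negative, with a median of 0.057 beside −0.014 over all genes tested. The shares are close to those of the whole table, so the counts say nothing particular about the pathway.

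**Figure D1:**
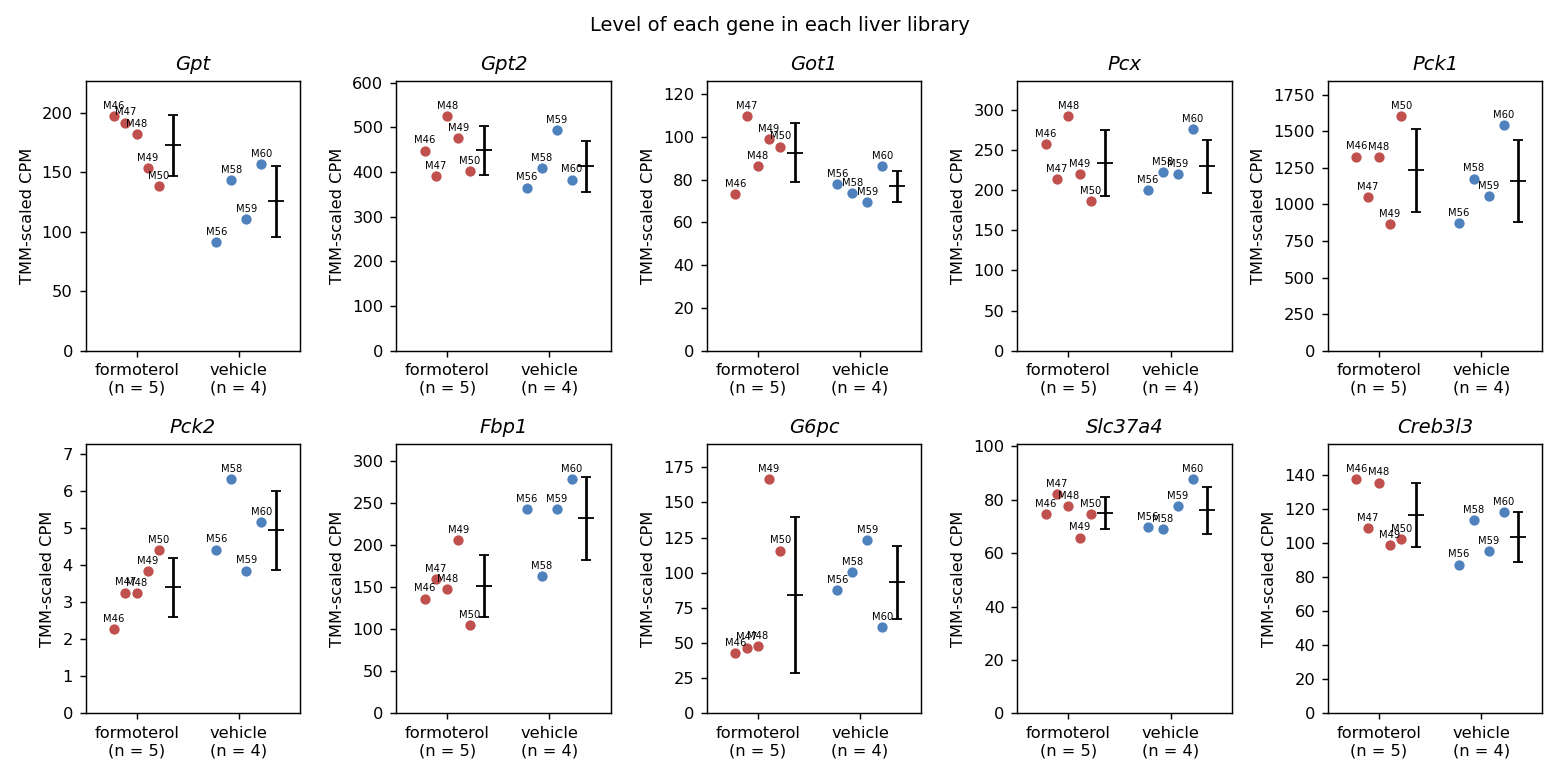
TMM-scaled CPM of each gene (vertical axis, from 0) in the 5 formoterol libraries (red) and 4 vehicle libraries (blue), each point labelled with its library; the black bar is the group mean ± SD. The groups overlap in every panel. G6pc shows 3 formoterol libraries at 42.9 to 47.99 CPM and the other 2 at 116 and 167 CPM.

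The transaminases come first in the route. Gpt (chromosome 15, 76579916 to 76583886 on mm39), the soluble alanine aminotransferase that turns alanine into pyruvate, had 197, 192, 182, 154 and 138 CPM in the formoterol libraries M46 to M50. In the vehicle libraries M56 to M60 it had 91.2, 144, 111 and 157 CPM. M46, M47 and M48 lay above every vehicle library, and the other 2 lay inside the vehicle range. The mean was 173 ± 25.5 CPM in formoterol livers (SD, n = 5) and 126 ± 30.1 CPM in vehicle livers (SD, n = 4). The log2 fold change was 0.46 (SE 0.18, 95% interval 0.073 to 0.85; edgeR adjusted p = 0.261, unadjusted p = 0.023). Limma-voom with sample quality weights called it higher (adjusted p = 0.0273), as it did 6.07% of all genes, against adjusted p-values of up to 0.615 under the other alternatives. Library totals in place of TMM factors, and leaving out M47, M56 or M59, took its unadjusted p above 0.05, to at most 0.125. An unnamed long noncoding gene overlaps Gpt on the opposite strand, with 8 counts in all 9 libraries together.

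Gpt2 (chromosome 8), the mitochondrial alanine aminotransferase, was more abundant and differed less. It had 448, 392, 525, 475 and 402 CPM in formoterol libraries, against 365, 408, 495 and 383 CPM in vehicle libraries. Only M48 lay outside the vehicle range. Its log2 fold change was 0.12 (SE 0.15, 95% interval −0.21 to 0.45; edgeR adjusted p = 0.768). Within libraries, the level of Gpt per kb relative to Gpt2 ranged from 0.621 to 0.941 in formoterol and 0.429 to 0.785 in vehicle livers. For that ratio 2 of 5 formoterol libraries, M46 and M47, lay above all vehicle libraries.

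Got1 (chromosome 19), the cytosolic aspartate aminotransferase, returns oxaloacetate from aspartate in the cytosol. It had 73.1, 110, 86.2, 98.9 and 95.4 CPM in formoterol libraries and 78.0, 73.8, 69.3 and 86.2 CPM in vehicle libraries. M47, M49 and M50 were above all vehicle libraries, M46 was among the low vehicle values, and M48 was level with the highest vehicle library to 3 digits. For Got1 the log2 fold change was 0.27 (SE 0.15, 95% interval −0.045 to 0.58; edgeR adjusted p = 0.421). It was positive under every alternative run, from 0.12 with library totals to 0.41 with sample quality weights. Its mitochondrial partner Got2, which is not among the 10, had 358 ± 18.4 CPM in formoterol and 369 ± 48.5 CPM in vehicle livers (log2 fold change −0.042). The Got1 to Got2 ratio per kb was 0.417 to 0.569 in formoterol and 0.339 to 0.452 in vehicle libraries, with 4 of 5 formoterol libraries above all 4 vehicle libraries.

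Pcx (chromosome 19), the mitochondrial pyruvate carboxylase, was alike in both groups within its spread. Its values were 257, 214, 292, 220 and 187 CPM in formoterol libraries, against 200, 222, 220 and 276 CPM in vehicle libraries. The log2 fold change of 0.027 (SE 0.16, 95% interval −0.32 to 0.38; edgeR adjusted p = 0.961) took a negative sign under 6 of 18 alternatives, so no direction can be read from it. Lrfn4 lies within the span of Pcx on the opposite strand and held 35 counts in all.

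Pck1 (chromosome 2, 172994841 to 173001066 on mm39), the cytosolic phosphoenolpyruvate carboxykinase, was the most abundant member. It had 1326, 1051, 1321, 864 and 1602 CPM in formoterol libraries and 873, 1175, 1054 and 1540 CPM in vehicle libraries. Both groups spanned nearly the same range, with M50 just above and M49 just below the vehicle libraries. The mean was 1233 ± 284 CPM in formoterol livers (SD, n = 5) and 1161 ± 282 CPM in vehicle livers (SD, n = 4). The fitted log2 difference was 0.087 (SE 0.21; edgeR adjusted p = 0.886), and its 95% interval ran from −0.36 to 0.53. The sign turned negative with library totals and without M50 or M56.

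Pck2 (chromosome 14), the mitochondrial isoform, was present at a few CPM. Formoterol libraries had 2.28, 3.26, 3.24, 3.85 and 4.41 CPM, from 28 to 79 counts each, and vehicle libraries had 4.43, 6.34, 3.86 and 5.17 CPM, from 76 to 98 counts. M46 to M49 lay below every vehicle library, M49 only narrowly, and M50 lay at the height of M56. Its fitted difference on the log2 scale was −0.53 (SE 0.27, 95% interval −1.09 to 0.041; edgeR adjusted p = 0.383). It stayed negative under all 18 alternatives, from −0.68 to −0.39, with an unadjusted p under 0.05 in 3 of them. Per kb, Pck1 exceeded Pck2 511 to 1330 times in formoterol and 422 to 678 times in vehicle libraries, with 4 of 5 formoterol libraries above all vehicle libraries. The table gives Pck2 a length of 7806 bp, the longest of the members, and its level per kb rests on that length.

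Fbp1 (chromosome 13, 63012567 to 63036096 on mm39), the liver fructose-1,6-bisphosphatase, was the member with the smallest p. Its values were 137, 160, 148, 206 and 105 CPM in formoterol libraries, against 243, 163, 243 and 279 CPM in vehicle libraries. M46, M47, M48 and M50 lay below every vehicle library, while M49 lay between M58 and the other vehicle libraries. Means were 151 ± 37.0 CPM in formoterol livers (SD, n = 5) and 232 ± 48.97 CPM in vehicle livers (SD, n = 4), 0.652 of the vehicle level by the fitted fold. On the log2 scale the difference was −0.62 (SE 0.2, 95% interval −1.04 to −0.19; edgeR adjusted p = 0.197, unadjusted p = 0.00762). All 18 alternatives gave a negative value with an unadjusted p under 0.05.

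Without M49, Fbp1 fell and passed the edgeR test (log2 fold change −0.76, adjusted p = 0.0318), as did 2.04% of all genes in that direction and 3.47% in the other. It also passed limma-voom with sample quality weights (−0.58, adjusted p = 0.0346), which called 4.46% of all genes lower. DESeq2 called none of the 10 members, beside 1.96% of genes higher and 0.826% lower. Over all alternatives the adjusted p of Fbp1 ran from 0.0318 to 0.514. M49 was singled out from these same data and had the highest Fbp1 of the formoterol libraries. Leaving it out therefore had to widen the difference and is no independent support. Without M50, which also lay nearer the vehicle libraries, the log2 fold change was −0.52 (edgeR adjusted p = 0.2). Relative to Pfkl, the liver phosphofructokinase that catalyses the opposing step, Fbp1 per kb stood at 26 to 48.4 in formoterol and 47 to 82.6 in vehicle libraries. In 4 of 5 formoterol libraries the ratio was below that of all vehicle libraries.

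**Figure D2:**
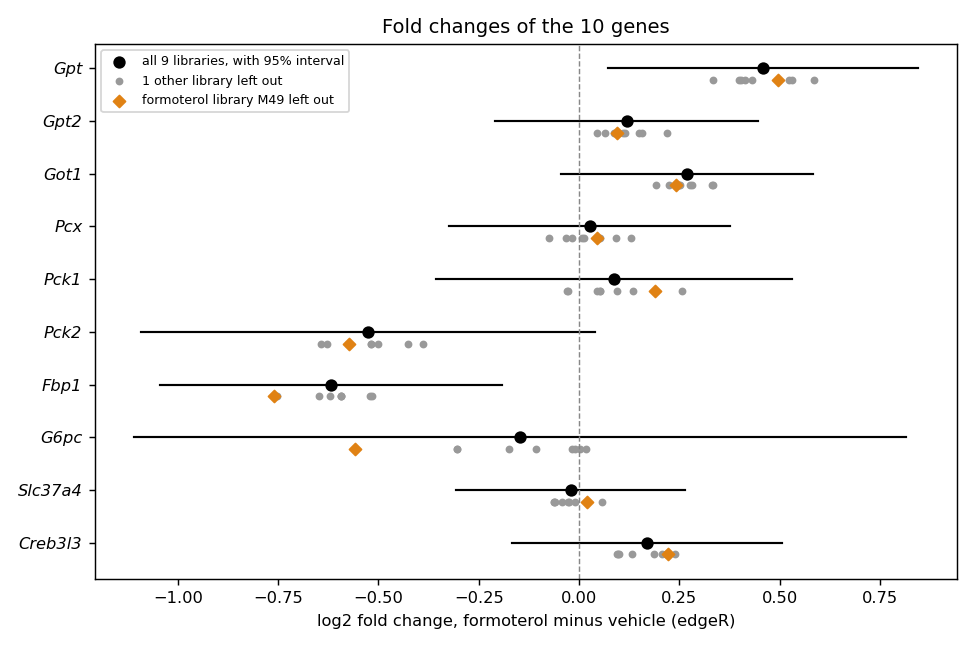
Log2 fold changes from edgeR (horizontal axis, formoterol minus vehicle) for each gene, with black points and 95% intervals for all 9 libraries; grey points leave out 1 library each and orange diamonds leave out M49. Only the intervals of Gpt and Fbp1 exclude 0, and G6pc moves most when M49 is left out (−0.15 to −0.56).

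G6pc (chromosome 11, 101258387 to 101268729 on mm39) encodes the catalytic subunit of glucose-6-phosphatase, the final step before glucose leaves the cell. Formoterol libraries had 42.9, 46.8, 47.99, 167 and 116 CPM. Vehicle libraries had 87.9, 101, 123 and 61.1 CPM. M46, M47 and M48 lay within a narrow band under all vehicle libraries, M50 lay inside the vehicle range, and M49 was the highest of the 9. The coefficient of variation was 65.8% in formoterol and 27.8% in vehicle livers, and among the other members it was 24.5% at most in formoterol livers. That difference in spread was not tested. The log2 fold change was −0.15 (SE 0.43, 95% interval −1.11 to 0.82; edgeR adjusted p = 0.908). Without M49 it was −0.56 (edgeR adjusted p = 0.347), and without M46 or M59 it was 0.0032 and 0.017. Limma-voom with sample quality weights gave −0.76 (adjusted p = 0.0815), against adjusted p-values of up to 0.999 elsewhere.

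Slc37a4 (chromosome 9), the transporter that carries glucose-6-phosphate to G6pc in the endoplasmic reticulum, varied least in formoterol livers (coefficient of variation 7.97%, and 11.5% in vehicle livers, where that of Got1 was 9.35%). It had 74.7, 82.2, 77.6, 65.9 and 74.7 CPM in formoterol libraries, against 69.8, 69.0, 77.5 and 87.9 CPM in vehicle libraries. The log2 fold change was −0.021 (SE 0.13, 95% interval −0.31 to 0.27; edgeR adjusted p = 0.964), with a positive sign under 3 of 18 alternatives. The level of G6pc relative to Slc37a4 per kb therefore followed G6pc. The ratio was 0.679, 0.673, 0.732, 3 and 1.84 in formoterol libraries and 1.49, 1.73, 1.88 and 0.823 in vehicle libraries.

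**Figure D3:**
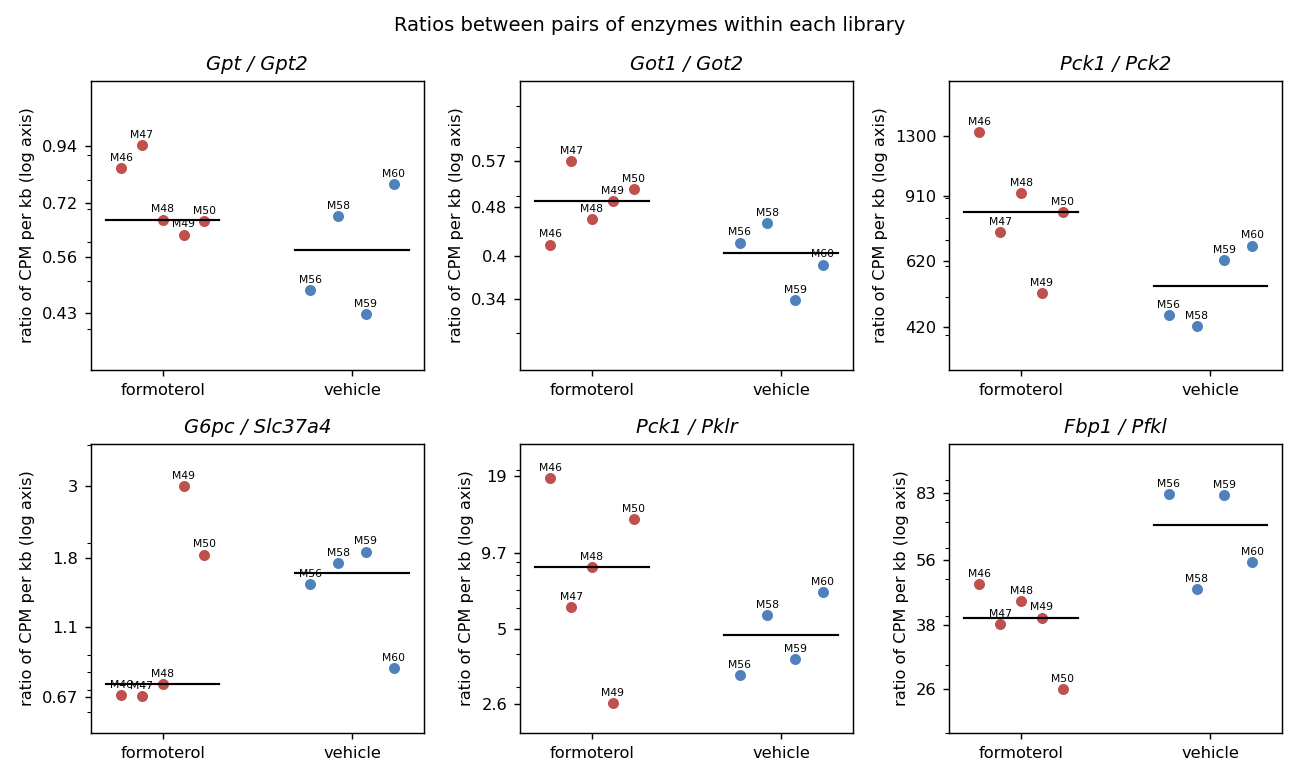
Ratios of CPM per kb between pairs of enzymes within each library (vertical log axes), formoterol libraries red and vehicle libraries blue, with a black line at each group median. The pairs were chosen by function with the values known and were not tested. G6pc over Slc37a4 spans 0.673 to 3 in formoterol and 0.823 to 1.88 in vehicle libraries.

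Creb3l3 (chromosome 10) encodes a liver-enriched factor that is cut from the endoplasmic reticulum membrane and, in mouse, activates Fgf21 and apolipoprotein genes in fasting. It had 138, 109, 136, 98.7 and 102 CPM in formoterol libraries and 87.4, 114, 95.5 and 118 CPM in vehicle libraries. M46 and M48 were above the vehicle range and the other 3 were inside it. For Creb3l3 the log2 fold change was 0.17 (SE 0.16, 95% interval −0.17 to 0.51; edgeR adjusted p = 0.659), positive under all 18 alternatives.

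Per kb of gene length, the members ranked with Pck1 first at a median of 343 CPM per kb over the 9 libraries (252 to 467). Fbp1 (61.7 to 164), Gpt2 (64.7 to 93.0) and Gpt (31.0 to 67.1) followed with medians of 95.6, 72.3 and 52.3 CPM per kb, each overlapping the next. Pcx, G6pc, Creb3l3 and Got1 lay between medians of 46.3 and 33.9 CPM per kb and could not be ordered beyond their spread. Slc37a4 came next (median 26.1 CPM per kb), and Pck2 was last at 0.494 CPM per kb (0.292 to 0.812), apart from all others. Pck1 and Pck2 were thus the only members whose ranges met no neighbour.

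**Figure D4:**
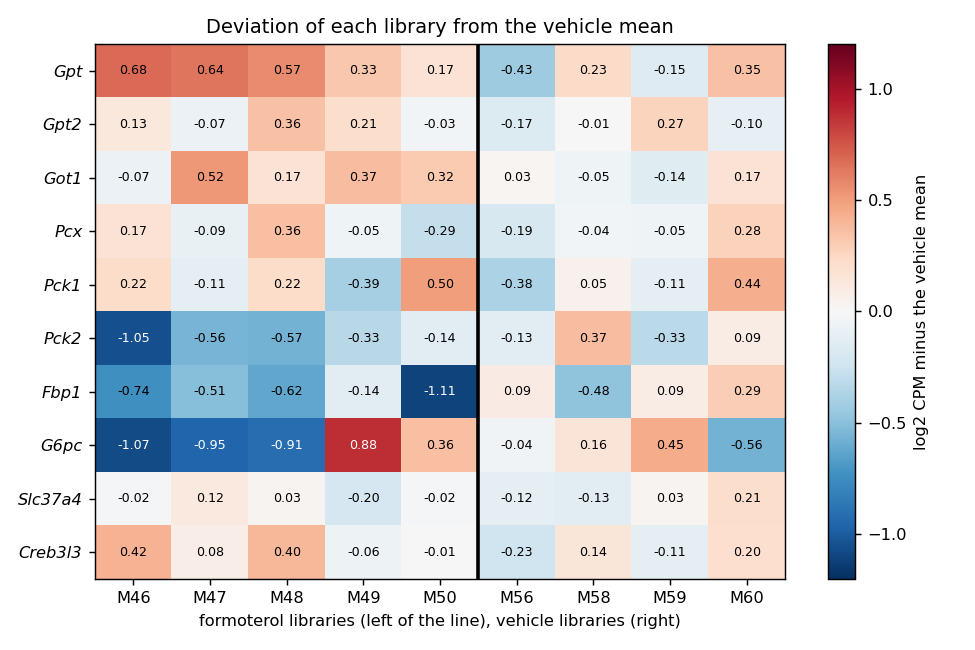
Log2 CPM of each gene in each library minus the mean of the 4 vehicle libraries (color scale and printed values), with formoterol libraries left of the black line and vehicle libraries right of it. M46, M47 and M48 have G6pc near −1 (−1.07 to −0.91), while M49 has 0.88 and M50 0.36; Fbp1 is lowest in M50 (−1.11).

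Members did not move as a block between libraries. Across the 9 libraries, which share group and scaling, log2 CPM of Creb3l3 correlated with that of Gpt (r = 0.83) and Pcx (r = 0.797) and inversely with that of G6pc (r = −0.729). Pck1 and G6pc, both textbook cyclic AMP targets, had r = −0.378. In formoterol livers, M49 had the highest G6pc and Fbp1 and the lowest Pck1, Slc37a4 and Creb3l3. These correlations describe 9 points and carry no test.

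Hepatocyte markers stood beside these values. Their summed level was 102800 to 140200 CPM in formoterol and 87310 to 99630 CPM in vehicle livers. Alb alone, most of that sum, had 85080 ± 13030 CPM in formoterol and 66920 ± 4634 CPM in vehicle livers. Of the 9 hepatocyte markers tested, 4 were higher in formoterol livers and 0 lower, with an unadjusted p under 0.05. Over all genes tested, 9.03% were higher and 5.53% lower at that threshold, which the marker counts below share. Pericentral markers summed to 8710 to 17520 CPM in formoterol and 9693 to 11610 CPM in vehicle livers, with 2 of 12 higher and 2 lower in formoterol. Periportal markers summed to 6168 to 9050 CPM in formoterol and 4412 to 6436 CPM in vehicle livers, with 5 of 12 higher and 2 lower in formoterol, and none of the 12 at 0. Cps1 was counted in both the hepatocyte and the periportal list. Stellate cell markers summed to 84.1 to 420 CPM in formoterol and 262 to 443 CPM in vehicle livers, lowest in M46, and endothelial markers to 44.8 to 141 CPM in formoterol and 115 to 144 CPM in vehicle livers. Macrophage markers summed to 58.6 to 120 CPM in formoterol and 89.1 to 156 CPM in vehicle livers, with 2 of 10 lower in formoterol. No marker of these lists was at 0 throughout, and their part in the values of the members was not tested. Pck1 is also a gene of adipocytes and of the kidney: of 7 adipocyte markers Plin1 was at 0 in all libraries, and of 6 kidney tubule markers 4 were at 0 (Slc34a1, Slc5a2, Kap and Umod). The adipocyte markers summed to 84.85 to 165 CPM in formoterol and 58.3 to 110 CPM in vehicle livers, of which Cfd, also known as adipsin, gave 75.4 ± 32.6 CPM in formoterol and 11.7 ± 5.89 CPM in vehicle livers. Their part in the Pck1 values was not tested. The kidney markers summed to at most 0.713 CPM in formoterol and 0.732 CPM in vehicle libraries.

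Related genes were counted in 6 lists. By edgeR none of their 145 tested genes passed at an adjusted p under 0.05, so the counts with all 9 libraries are at an unadjusted p under 0.05. They stand beside the same 9.03% of all genes higher and 5.53% lower. Among 28 partner enzymes, which share the reversible steps or feed carbon in, 5 were higher and 5 lower (median −0.048). Sdsl, a serine dehydratase-like enzyme, had 9.43 ± 1.51 CPM in formoterol and 5.38 ± 1.57 CPM in vehicle livers. Agxt, which moves the amino group of alanine to glyoxylate, had 192 ± 41.1 CPM in formoterol and 115 ± 38.5 CPM in vehicle livers. Gpd1, the cytosolic glycerol-3-phosphate dehydrogenase through which glycerol enters, had 148 ± 35.7 CPM in formoterol and 218 ± 44.1 CPM in vehicle livers. Without M49, 2 of these enzymes passed the adjusted threshold as higher (Agxt and Cps1) and 4 as lower (Gpd1, Gpd2, Eno1 and Tkfc). In that fit 3.47% of all genes were called higher and 2.04% lower. M49 had the lowest formoterol value of each enzyme called higher and the highest of each called lower. Leaving it out therefore had to widen those differences.

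Among 18 carriers and transporters 3 were higher and 3 lower (median −0.066). Mpc2, a subunit of the carrier that brings pyruvate into mitochondria, had 184 ± 55.2 CPM in formoterol and 117 ± 33.6 CPM in vehicle livers. The glutamate carrier Slc25a22 had 44.8 ± 12.1 CPM in formoterol and 72.1 ± 4.87 CPM in vehicle livers, and the groups did not overlap. Slc43a1, an amino acid transporter, had 6.72 ± 3.43 CPM in formoterol and 2.28 ± 0.583 CPM in vehicle livers, with M49 at 1.56 CPM inside the vehicle range. Slc2a2, the glucose transporter of the hepatocyte membrane, had 296 ± 22.7 CPM in formoterol and 313 ± 35.3 CPM in vehicle livers (log2 fold change −0.081, edgeR adjusted p = 0.835).

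Among 34 transcriptional regulators 2 were higher and 3 lower (median 0.019). Foxo1, a forkhead factor that drives G6pc and Pck1, had 19.6 ± 4.80 CPM in formoterol and 18.5 ± 1.91 CPM in vehicle livers. The log2 fold changes were −0.16 for Crtc2, a coactivator of CREB, and 0.022 for Ppargc1a, a coactivator induced by cyclic AMP, whose sign turned with library totals (−0.14). Those with the smallest p were Esrra, an orphan nuclear receptor (22.2 to 24.0 CPM in formoterol and 12.7 to 19.7 CPM in vehicle livers), Foxo3 (20.0 ± 6.60 CPM in formoterol and 29.2 ± 3.93 CPM in vehicle livers) and Txnip (29.3 ± 9.71 CPM in formoterol and 41.6 ± 8.23 CPM in vehicle livers). Txnip passed the edgeR test as lower without M49 (adjusted p = 0.0318), as did 2.04% of all genes. M49 had the highest Txnip of the formoterol libraries, so leaving it out had to widen the difference.

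Among 23 genes of hormone and cyclic AMP input none was higher and 3 were lower (median −0.24). Gcgr, the glucagon receptor, had 165 ± 33.4 CPM in formoterol and 122 ± 39.7 CPM in vehicle livers (log2 fold change 0.44, edgeR adjusted p = 0.371). The 3 lower genes were Pik3r1, a regulatory subunit of the insulin-activated lipid kinase (46.8 ± 18.3 CPM in formoterol and 73.9 ± 10.3 CPM in vehicle livers), Pde4b, which degrades cyclic AMP (8.68 ± 2.07 CPM in formoterol and 12.3 ± 2.55 CPM in vehicle livers), and Gnas, which encodes the stimulatory G protein subunit (3.20 ± 1.74 CPM in formoterol and 6.22 ± 2.32 CPM in vehicle livers).

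Among 21 enzymes of the opposing glycolytic direction none was higher and 3 were lower (median −0.16, and −0.32 without M49). Pklr, the liver pyruvate kinase, turns the phosphoenolpyruvate that Pck1 forms into pyruvate. It had 67.1, 163, 145, 312 and 116 CPM in formoterol libraries and 246, 197, 259 and 211 CPM in vehicle libraries. M46, M47, M48 and M50 were below all vehicle libraries and M49 was above them. Its log2 fold change was −0.51 (edgeR adjusted p = 0.525), and without M49 it fell by 0.90 on the log2 scale (edgeR adjusted p = 0.0372). In that fit 2.04% of all genes were called lower. M49 had the highest Pklr of the formoterol libraries, so leaving it out had to widen the difference and is no independent support. Per kb, the ratio of Pck1 to Pklr was 2.62 to 18.7 in formoterol and 3.35 to 6.89 in vehicle libraries, with M46, M48 and M50 above all vehicle libraries and M49 below them. Pfkfb3, which makes the activator of phosphofructokinase that also inhibits Fbp1, had 2.55 ± 0.856 CPM in formoterol and 4.85 ± 0.451 CPM in vehicle livers, without overlap. The next smallest p belonged to Pdk4, a kinase that inhibits pyruvate dehydrogenase (5.63 ± 2.51 CPM in formoterol and 11.6 ± 4.04 CPM in vehicle livers), and to Pfkm, the muscle phosphofructokinase (4.44 ± 1.81 CPM in formoterol and 7.10 ± 1.44 CPM in vehicle livers).

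Among 21 relatives, processing factors and reported targets of Creb3l3, none was higher and 6 were lower (median −0.33), while Creb3l3 itself had 0.17. Apoa4, an apolipoprotein that Creb3l3 activates in mouse, had 186, 251, 294, 981 and 382 CPM in formoterol libraries and 1571, 1291, 1598 and 707 CPM in vehicle libraries. M46, M47, M48 and M50 were below all vehicle libraries, and M49 was inside their range. Its log2 fold change was −1.62 (SE 0.47, edgeR adjusted p = 0.191), and −2.22 without M49 (edgeR adjusted p = 0.00156). Fgf21, a fasting hormone of the liver, had 0.407, 2.20, 2.27, 7.55 and 3.00 CPM in formoterol libraries and 7.57, 7.90, 8.84 and 8.45 CPM in vehicle libraries. Every formoterol library was below every vehicle library, M49 by the smallest margin. The log2 fold change was −1.38 (SE 0.50, edgeR adjusted p = 0.242), and −2.03 without M49 (edgeR adjusted p = 0.0101). The fit without M49 called 2.04% of all genes lower. M49 had the highest Apoa4 and Fgf21 of the formoterol libraries. Leaving it out therefore had to widen both differences and is no independent support. Insig2, an anchor of the sterol sensor (81.8 ± 13.2 CPM in formoterol and 121 ± 13.2 CPM in vehicle livers), and Syvn1, a ubiquitin ligase of the endoplasmic reticulum (25.97 ± 4.35 CPM in formoterol and 36.4 ± 4.79 CPM in vehicle livers), had the smallest p besides Apoa4. Other reported targets had positive log2 fold changes that did not pass either: 0.55 for Hamp, 0.47 for Apcs, 0.17 for Crp and 0.10 for Apoa5, whose sign turned with library totals. Several of these targets respond to other factors as well, and their values do not measure Creb3l3 activity.

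**Figure D5:**
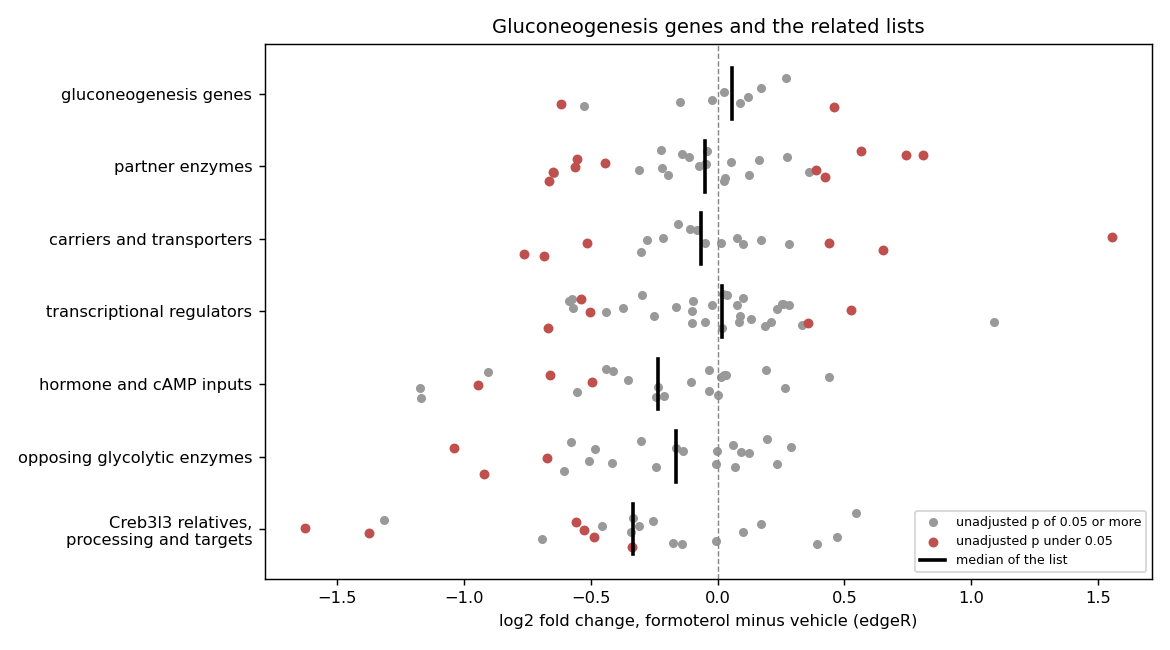
Log2 fold changes from edgeR (horizontal axis, formoterol minus vehicle) of the tested genes in each list; red points have an unadjusted p under 0.05 and the black line is the list median. The 10 gluconeogenesis genes center at 0.057 with 1 red point on each side, and the Creb3l3 list centers at −0.33 with 6 red points, all lower.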

How the data were processed

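Poly(A) RNA of 9 livers was sequenced. The submitters' processing notes name HISAT2 2.0.5, DESeq2 without a version, and mm39. Which counting program, strand setting and annotation were used is not stated there. The authors deposited raw counts per gene, which are not normalized, together with a gene length in bp. Columns carry animal codes, the tag MASH, which all 9 libraries share, and a suffix. The group was read from the suffix and the group sizes of 5 and 4. Libraries were treated as separate mice, which no label states for each one, so the p-values may measure technical spread only. No 2 libraries of a group were alike within sampling noise (chi-square per degree of freedom of 24.7 or more).

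Genes were kept by filterByExpr (minimum count 10, minimum total 15), leaving 13042 with at least 99.839% of each library's counts. Groups were compared over all kept genes with edgeR 4.0.16 in R 4.3.3 (TMM factors, robust quasi-likelihood test, two-sided, Benjamini-Hochberg adjustment, threshold 0.05). SE is the log2 fold change divided by the root of the F statistic. Log2 CPM used a prior count of 2. Only the edgeR test was run on simulated counts, which held no outlying library such as M49, and the alternatives were not simulated. Alternatives were other scalings, no filter, a gene-length trend, DESeq2 1.42.0, limma 3.58.1 (voom, also with sample quality weights) and leaving out each library. All 10 members are named. Each related list names its 3 genes with the smallest p and a fixed set of 10 genes, some of which are not reported here; a gene outside this rule (Pfkl, Cps1, Gpd2, Eno1, Tkfc, Hamp, Apcs, Crp and Apoa5) was named after its values were seen. Eno1 has near-identical copies, and its value is uncertain. The members and lists were chosen with earlier results of these data known, and no p is given over a list.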

Additional observations from a re-analysis of the deposited data

How the results depend on the processing

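Of 180 values of single members under 18 alternatives, 161 kept direction and side of the threshold, 3 passed it and 16 changed sign, all without passing it; the cause was not tested. The count of genes called over the whole table, 0 by edgeR with all 9 libraries (with an unadjusted p under 0.05 for 1178 higher and 721 lower genes), was 263 without the low-count filter, 314 by DESeq2, 1374 by limma-voom with sample quality weights, 0 by limma-voom, and 0 to 702 with 1 library left out (702 without M49, 4 without M60). Members called were 2 with quality weights (Gpt and Fbp1) and 0 to 1 with 1 library left out. Members at an unadjusted p under 0.05 were 4 with quality weights and 1 to 3 with 1 library left out, with 1 (Fbp1) without M47 or without M56.

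Library totals moved the median of all genes to −0.16, from −0.014 with TMM factors, and that of the members to −0.11. They gave −0.095 for Pck1, −0.13 for Pcx and −0.025 for Gpt2. Upper-quartile factors gave −0.017 for Pcx. Quality weights gave 0.068 for Slc37a4, −0.012 for Pcx and −0.0091 for Gpt2. With 1 library left out, log2 fold changes ran from −0.029 to 0.26 for Pck1, −0.56 to 0.017 for G6pc, −0.063 to 0.058 for Slc37a4 and −0.076 to 0.13 for Pcx. No paired analysis was possible because the columns carry no replicate number. Precision is lowest for G6pc (SE 0.43), and depth is lowest for Pck2, at 28 to 98 counts per library.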

Other observations

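The genes closest in pattern to 5 of the members over the 9 libraries were taken as the 3 with the largest Pearson correlation of log2 CPM, out of 13042 genes, with no test. G6pc was closest to Slc16a13 (r = 0.98), a monocarboxylate transporter, Ednra (r = 0.974), the endothelin receptor A, and Hs3st3a1 (r = 0.964). Creb3l3 was closest to Hsd11b1 (r = 0.968), which regenerates glucocorticoid, Oat (r = 0.967), which breaks down ornithine, and Eci1 (r = 0.966), of fatty acid oxidation. Gpt was closest to Psme2 (r = 0.986), a proteasome activator subunit, Apoe (r = 0.98) and Atp5o (r = 0.976). Fbp1 was closest to Eif4a-ps4 (r = 0.956), Mlf2 (r = 0.944) and Rbpms2 (r = 0.942), and Pck1 to Gm15417 (r = 0.931), Atoh8 (r = 0.922) and Trp53rka (r = 0.915).

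Among the adipocyte markers, Cfd, which encodes complement factor D, had 75.4 ± 32.6 CPM in formoterol livers and 11.7 ± 5.89 CPM in vehicle livers (log2 fold change 2.68, edgeR adjusted p = 0.158). DESeq2 called Cfd higher (adjusted p = 0.000256), as it did 1.96% of all genes. Sample quality weights in limma-voom did so too (adjusted p = 0.00189), as for 6.07% of all genes. Without M49 the edgeR adjusted p was 0.000637, where 3.47% of all genes were called higher. M49 had the lowest Cfd of the formoterol libraries, so leaving it out had to widen the difference. The other tested markers were lower: Cidea had 15.8 ± 7.87 CPM in formoterol and 27.3 ± 13.3 CPM in vehicle livers, and Pnpla2 had 34.9 ± 8.13 CPM in formoterol and 40.0 ± 4.04 CPM in vehicle livers. Adipoq was seen in M47 (0.283 CPM) and M49 (0.39 CPM), Lep in M49 (0.585 CPM) and Retn in M50 (0.0588 CPM), and all 3 were at 0 in the other libraries. Plin1 was at 0 in all.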
